A study of Mus musculus with 25 samples.

Results

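The ligands of the transforming growth factor beta (TGF-beta) superfamily listed here were Tgfb1, Tgfb2, Tgfb3, Bmp2, Bmp4, Bmp5, Bmp7, Bmp10, Gdf15 and Inhba. A gene was represented by the probe set annotated to it alone on the mouse gene array, and by the brightest one where a gene had several. In this way 9 of the 10 genes were measured, each by 1 probe set, among 19938 genes with a probe set of their own and 35557 probe sets in all. Gdf15 matched none of them and was not analysed here. RNA came from cultured neonatal mouse cardiac myocytes, either wild type (WT) or transgenic (TG) for CHF1/Hey2, a Hairy-related transcriptional repressor that the mlc2v promoter drives in the myocardium. The groups were 5 WT and 6 TG cultures kept in medium free of serum, and 7 WT and 7 TG cultures given 20% fetal bovine serum for 24 hours, each hybridized to 1 array. The methods call the cultures independent and report, from staining of each preparation for sarcomeric myosin, that nearly all cells were myocytes. No litter is named for any culture, however, and the p-values below therefore describe only how much these dishes varied. The array reads RNA from every cell in the dish, so fewer cells of a type and less RNA per cell cannot be told apart.

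Ligands of this superfamily are secreted as dimers that bring together type I and type II receptor kinases, which phosphorylate SMAD proteins that then enter the nucleus. TGF-betas and activins act mainly through Smad2 and Smad3 and bone morphogenetic proteins (BMPs) through Smad1, Smad5 and Smad9, while Smad6 and Smad7 are inhibitory and are themselves induced by the pathway. In the heart, TGF-betas are known for fibroblast activation and for valve formation, and BMPs for the specification of cardiac mesoderm and of the atrioventricular canal, where Hey1 and Hey2 restrict Bmp2 in the mouse embryo.

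Because the transgene encodes a repressor that can bind E-boxes, the DNA just before the transcription start was read for the ligand genes. RefSeq promoter windows (GRCm38.p6) matched 6 of the 9 measured genes, and Tgfb3, Bmp2 and Bmp7 were not matched. The 250 bases before the start are shown 5′ to 3′ on the strand of the gene for the genes that the results below turn on. Capitals mark a match, on either strand, to the palindromic E-box CACGTG or to the GC box GGGCGG, which reads CCGCCC on the other strand.
Tgfb2: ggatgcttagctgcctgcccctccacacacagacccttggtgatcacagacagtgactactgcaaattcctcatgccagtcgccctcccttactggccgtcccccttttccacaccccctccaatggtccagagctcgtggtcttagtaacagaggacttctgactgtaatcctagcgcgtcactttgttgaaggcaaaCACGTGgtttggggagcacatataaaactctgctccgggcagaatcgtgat
Bmp4: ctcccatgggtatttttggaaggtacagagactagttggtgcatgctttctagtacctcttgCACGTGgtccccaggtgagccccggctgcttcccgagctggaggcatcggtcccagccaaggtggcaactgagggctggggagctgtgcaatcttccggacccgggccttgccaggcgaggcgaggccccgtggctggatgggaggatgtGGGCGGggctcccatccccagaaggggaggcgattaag
Tgfb1: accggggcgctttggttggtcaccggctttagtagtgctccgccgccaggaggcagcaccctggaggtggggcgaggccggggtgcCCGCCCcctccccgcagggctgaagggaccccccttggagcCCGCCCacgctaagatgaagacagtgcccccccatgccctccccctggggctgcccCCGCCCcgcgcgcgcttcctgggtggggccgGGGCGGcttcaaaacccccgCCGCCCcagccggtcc
Inhba: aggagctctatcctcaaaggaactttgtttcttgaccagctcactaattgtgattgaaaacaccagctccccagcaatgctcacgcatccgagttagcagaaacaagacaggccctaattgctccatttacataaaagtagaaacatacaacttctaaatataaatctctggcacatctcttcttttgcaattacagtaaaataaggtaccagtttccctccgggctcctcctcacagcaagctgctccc
These windows lie at chr1:186705990-186706239 on the minus strand, chr14:46390670-46390919 on the minus strand, chr7:25686752-25687001 on the plus strand and chr13:16011601-16011850 on the plus strand. CACGTG stood 51 to 46 bases before the start of Tgfb2 and 188 to 183 bases before that of Bmp4, and was held by 6.04% of 32536 distinct mouse promoter windows of the same length. Tgfb1 held 5 GC boxes and Bmp4 held 1, against 33.0% of windows with 1 or more. The Inhba window held none of the 6 motifs searched, nor did those of Bmp5 and Bmp10. The other motifs were CACGCG (7.67% of windows), the AP-1 element TGANTCA (6.73%), the cyclic AMP response element TGACGTCA (1.56%) and the CArG box of serum response factor (1.48%), and they matched no ligand window. A match is a run of letters and was not tested for binding.

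Hey2 itself was higher in TG than in WT myocytes by a log2 difference of 1.58 without serum (adjusted p = 0.853 in limma over all probe sets) and of 1.81 with serum (adjusted p = 0.00972), and the groups did not overlap in either set. Before adjustment its limma p was under 0.05 in both sets. The paper, by an unadjusted threshold, names Hey2 as the only gene changed without serum. The list of 7 cardiac myocyte markers (Myh6, Tnnt2, Tnni3, Actc1, Myl2, Ryr2, Nppa) had group means of 11.67 to 12.27 on the log2 scale. The list of 5 atrial markers (Myl7, Sln, Myl4, Nr2f2 and again Nppa) had group means of 8.88 to 9.33, with Sln as a dim member (mean 4.29). Markers of other cells were also measured, with mean log2 values of 12.05 for the fibroblast gene Col1a1, 10.47 for the mesothelial keratin Krt19 and 5.43 for the endothelial gene Pecam1. Col1a1 and Krt19 were the brightest of their lists. Dimmer members were Tcf21 (7.06) and Lum (4.86) among the fibroblast markers, and Wt1 (6.17) and Upk3b (5.39) among the epicardial and mesothelial markers. In 6 cultures the myocyte list lay 0.45 or more below its group mean, namely WT replicate 2 and TG replicates 4 and 5 without serum, and WT replicates 3 and 4 and TG replicate 6 with serum. Arrays with serum had medians of 5.21 to 5.36 and those without had medians of 4.99 to 5.09 on the log2 scale, and the spread of values within an array also differed (median SD 2.56 and 2.12). TG and WT were therefore compared within each serum set. Array intensities carry no counting depth, and the number of arrays limits the precision.

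In TG against WT myocytes 0 of the 9 ligand transcripts passed an adjusted p under 0.05, without serum or with it, and the groups overlapped for all 9 in both sets. Tgfb2, the isoform needed for outflow tract and valve formation in the mouse, had log2 values of 8.47, 7.70, 8.29, 8.57 and 8.58 in the 5 WT cultures without serum, and 7.75, 8.55 and 9.21 (lowest, median, highest) in the 6 TG cultures. The low WT value was replicate 2 and the low TG values were replicates 4 and 5, all among the cultures low in myocyte markers. The difference between TG and WT was 0.19 (SE 0.269, 95% interval -0.40 to 0.78). With serum, Tgfb2 was 8.48, 9.14 and 9.46 in the 7 WT cultures and 8.76, 9.37 and 9.57 in the 7 TG cultures. The lowest TG culture (replicate 6) lay inside the WT range and the other 6 reached from 9.25 to 9.57. The difference of 0.28 (SE 0.162, 1.21-fold, 95% interval -0.07 to 0.63) had an adjusted p of 0.551 in limma. The myocyte marker list moved the same way, with 7 of 7 markers higher in TG with serum (median log2 difference 0.29) and 0 called, beside 8885 of all 19938 genes higher. Its part in the Tgfb2 difference was not tested. Without the 6 cultures low in myocyte markers, the Tgfb2 difference was 0.18 with serum and 0.36 without.

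Tgfb1, the widely expressed isoform known for its action on fibroblasts and immune cells, had log2 values of 8.55, 8.47, 8.32, 8.26 and 8.75 in WT cultures without serum and 8.31, 8.49 and 8.82 in TG cultures. With serum it was 9.39, 9.65 and 9.81 in WT and 9.38, 9.59 and 9.73 in TG. TG and WT covered nearly the same range in each set, and the differences were 0.05 (SE 0.108) without serum and -0.04 (SE 0.0807) with serum. Tgfb3, which in the mouse is needed for fusion of the palate, was 9.26, 8.45, 9.21, 9.55 and 9.30 in WT cultures without serum and 8.56, 9.17 and 9.48 in TG cultures. WT replicate 2 was again the lowest of its group, and TG replicates 4 and 5 were the lowest of theirs. With serum Tgfb3 was 9.68, 10.37 and 10.74 in WT and 9.94, 10.40 and 10.57 in TG. The differences were -0.06 (SE 0.218) and 0.08 (SE 0.155).

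**Figure D1:**
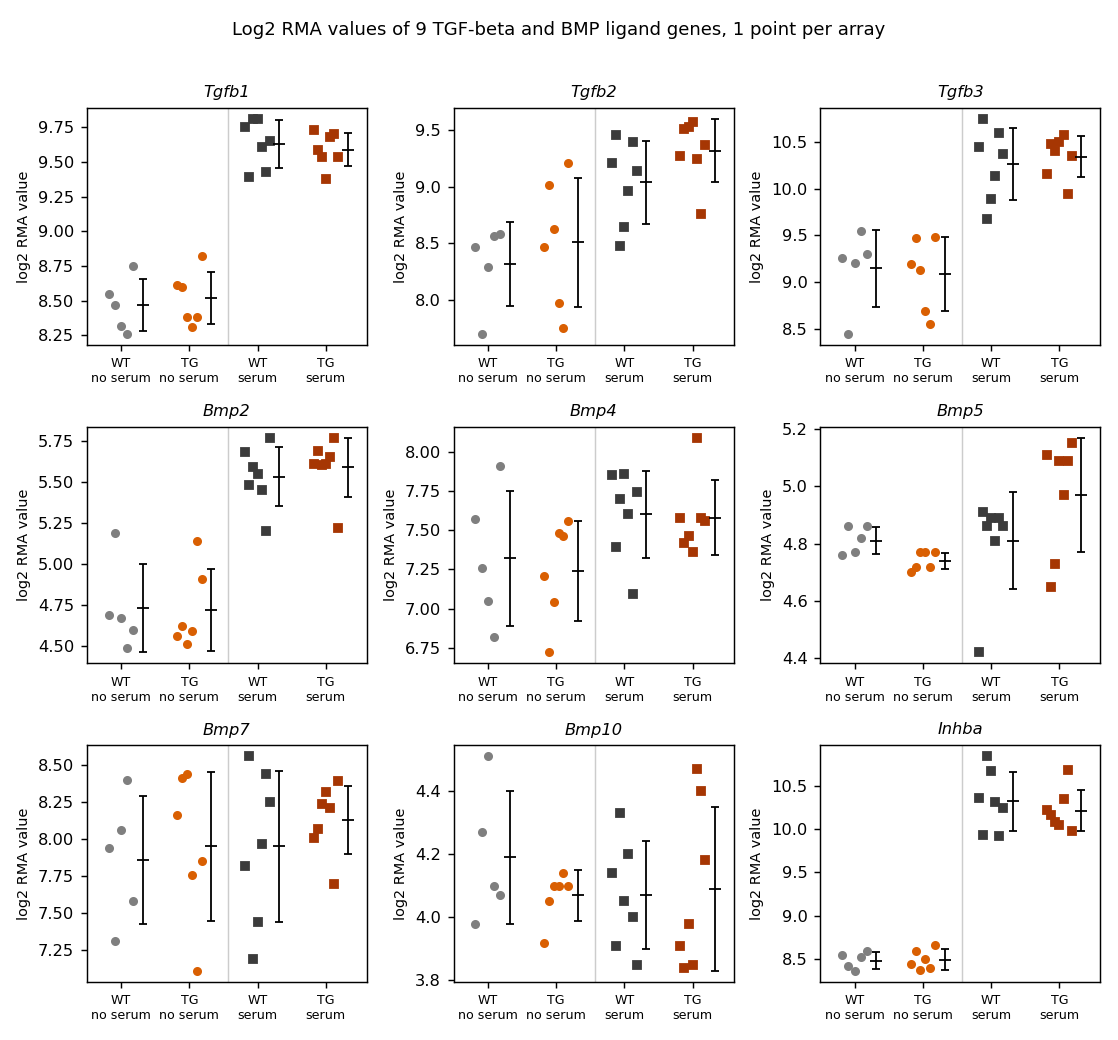
Log2 RMA values (vertical axes, 1 scale per gene) of the 9 measured ligand genes, with 1 point per array, in WT and TG cultures without serum (circles) and with serum (squares), and bars for the group mean and SD. TG and WT points overlap in every panel, and values to the left and right of the vertical line come from array sets on different scales.

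Among the BMPs, Bmp2, an inducer of cardiac differentiation and of the atrioventricular canal, had log2 values of 4.69, 5.19, 4.67, 4.49 and 4.6 in WT cultures without serum and 4.51, 4.6 and 5.14 in TG cultures. The highest values came from WT replicate 2 and TG replicate 5, the cultures lowest in myocyte markers within those groups. With serum Bmp2 was 5.20, 5.55 and 5.77 in WT and 5.22, 5.61 and 5.77 in TG. The differences between TG and WT were -0.01 (95% interval -0.32 to 0.31) and 0.06 (-0.14 to 0.26). Bmp4, which acts in septation of the outflow tract, was 7.57, 7.26, 7.05, 6.82 and 7.91 in WT cultures without serum and 6.72, 7.34 and 7.56 in TG cultures. WT values spread more widely than TG values here and enclosed all but 1 of them. With serum Bmp4 was 7.09, 7.70 and 7.86 in WT and 7.36, 7.56 and 8.09 in TG, the last in replicate 5. The differences were -0.08 (SE 0.205) and -0.03 (SE 0.131).

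Bmp7, which acts together with Bmp5 in cushion formation in the mouse heart, was 7.94, 7.31, 8.06, 8.40 and 7.58 in WT cultures without serum and 7.11, 8.0 and 8.44 in TG cultures. With serum it was 7.19, 7.97 and 8.56 in WT and 7.70, 8.21 and 8.39 in TG. Each group's lowest Bmp7 value came from a culture low in myocyte markers. The differences were 0.10 (SE 0.257) and 0.18 (SE 0.195), with adjusted p of 0.965 and 0.772 in limma. The difference with serum lay between 0.054 and 0.282 when 1 array was left out (lowest without WT replicate 3), and without the 6 cultures low in myocyte markers it was -0.001. The probe sets of Bmp5 and of Bmp10, a ligand of trabecular and later of atrial myocardium, were dim, with means of 4.84 and 4.10 over the 25 arrays. Bmp5 was 4.76, 4.86, 4.77, 4.82 and 4.86 in WT cultures without serum and 4.70, 4.74 and 4.77 in TG cultures, so that the groups met at 4.76 to 4.77. This was the 1 ligand with an unadjusted p under 0.05, a difference of -0.07 (SE 0.0327) whose limma p was 0.0472 before adjustment and 0.878 after it. With serum the Bmp5 difference was 0.16 (SE 0.0974, adjusted p = 0.561), with 4.42, 4.86 and 4.91 in WT and 4.65, 5.09 and 5.15 in TG. WT replicate 1 gave the value of 4.42, and the other 6 WT cultures lay between 4.81 and 4.91. Bmp10 reached from 3.98 to 4.51 in WT and from 3.92 to 4.14 in TG without serum, and from 3.85 to 4.33 and from 3.84 to 4.47 with serum, with differences of -0.12 and 0.02.

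Inhba, which encodes the beta A subunit of activin A and of inhibin A, was the steadiest of the brighter transcripts between cultures without serum. Its log2 values were 8.54, 8.42, 8.36, 8.52 and 8.59 in WT and 8.37, 8.47 and 8.66 in TG, a difference of 0.01 (SE 0.0633, 95% interval -0.13 to 0.15). With serum it was 9.92, 10.31 and 10.84 in WT and 9.97, 10.16 and 10.68 in TG. The highest values of both groups came from cultures low in myocyte markers, WT replicate 3 and TG replicate 6. The difference was -0.11 (SE 0.148, adjusted p = 0.826 in limma). The endothelial marker list moved the same way, with 8 of 8 markers lower in TG with serum (median log2 difference -0.28) and 0 called, and its part in the Inhba difference was not tested.

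**Figure D2:**
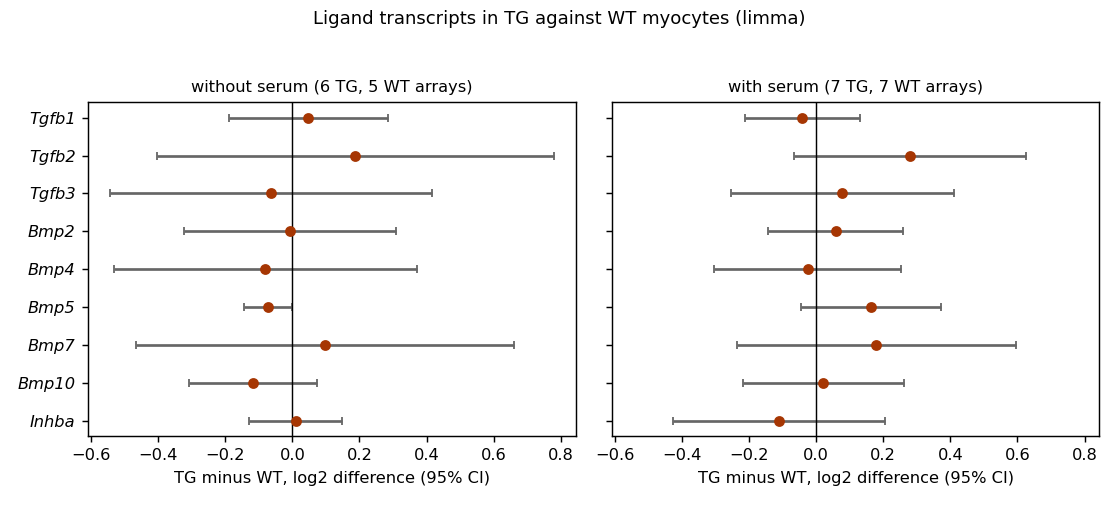
Difference between TG and WT myocytes for each ligand gene (horizontal axis, log2 scale), without serum (left, 6 TG and 5 WT arrays) and with serum (right, 7 and 7 arrays), with points for the limma estimate and bars for its 95% interval. The largest estimate is the 0.28 of Tgfb2 with serum, whose interval of -0.07 to 0.63 includes 0, and the one interval that leaves out 0 is that of Bmp5 without serum.

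These counts stood beside those of all 35557 probe sets. An adjusted p under 0.05 was reached by 0% of probe sets without serum and by 0.00844% with serum, against 0 of 9 ligands in each. An unadjusted p under 0.05 was reached by 1 of 9 ligands without serum (5.64% of probe sets) and by 0 with serum (10.7%). Groups that did not overlap made up 0.402% and 0.256% of probe sets and 0 of 9 ligands. The median log2 difference of the ligands was -0.01 without serum and 0.06 with serum, and that of all genes was -0.01 and -0.02. The TG effect with serum minus that without serum, fitted over all 25 arrays, passed for 0 of 9 ligands (0.00281% of probe sets). Bmp5 came closest with 0.24 (SE 0.116), with an unadjusted p of 0.0535 in limma.

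The rest of the pathway was read from lists of its other ligands, receptors, co-receptors, SMADs, activating proteins, antagonists and target genes, and 0 of these 100 genes passed the adjusted test between TG and WT in either set. Without serum an unadjusted p under 0.05 was reached by 1 gene, Bmp15, a ligand of the oocyte (log2 difference -0.13). With serum it was reached by 11 genes, among them the ligands Gdf10 (-0.24) and Bmp8a (-0.37), the activin receptor Acvr1b (0.23), the co-receptor hemojuvelin (0.38), the activating protease Furin (0.19), the activin antagonist Fst (-0.29) and the target Tgfbi (0.25). The 11 of 100 genes stood beside 10.7% of all probe sets with such a p in that set, and the 1 of 100 beside 5.64% without serum. The adjusted p of the 11 genes lay between 0.342 and 0.465 in limma. The SMAD genes with the smallest p differed by 0.10 (Smad3) and -0.09 (Smad9) with serum and by 0.11 (Smad1) without, and 0 of 8 had an unadjusted p under 0.05.

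With and without serum, the array sets stood on different scales, so levels were set side by side only as the percentile of a probe set among all 35557 in its own array. Serum and array set cannot be told apart, and a percentile close to 100 has little room to move. Inhba had percentiles of 88.6, 88.0, 87.2, 88.6 and 89.0 in WT cultures without serum and 93.7, 95.2 and 96.7 (lowest, median, highest) with serum. In TG cultures it had 87.2, 87.9 and 89.6 without serum and 94.0, 94.6 and 96.2 with serum. Every culture with serum thus lay above every culture without, in both genotypes. The difference was 6.86 percentile points in WT (SE 0.601, adjusted p = 2.64e-06 in limma) and 6.62 in TG (SE 0.517, adjusted p = 3e-07), and 1.33 and 1.23 on the log2 scale after all 25 arrays were quantile normalized together.

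Tgfb1 had percentiles of 88.7, 88.4, 86.9, 86.4 and 90.1 in WT cultures without serum and 91.1, 92.2 and 93.2 with serum. In TG cultures it had 87.0, 88.0 and 90.5 without serum and 90.7, 92.0 and 92.9 with serum. Here too the cultures did not overlap, although in TG the gap was narrow. The differences were 4.22 (SE 0.675, adjusted p = 0.000264 in limma) and 3.73 (SE 0.612, adjusted p = 0.000184). Bmp2 moved most in percentile points, from the middle of the array, with 43.9, 51.7, 43.0, 38.5 and 42.2 in WT cultures without serum and 47.7, 53.2 and 55.7 with serum. WT replicate 2 without serum (51.7) and WT replicate 6 with serum (47.7) made the groups overlap. The differences of Bmp2 were 9.01 in WT (SE 2.04, adjusted p = 0.00286) and 9.78 in TG (SE 1.91, adjusted p = 0.000722).

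Tgfb3 passed in TG (3.43, adjusted p = 0.00471) and not in WT (2.60, adjusted p = 0.054), and the difference of the TG effects on percentiles passed for 0 of 9 ligands. Tgfb2 did not pass, with 1.77 in WT (adjusted p = 0.372) and 2.61 in TG (adjusted p = 0.214). Bmp4 (-1.41 and -0.98), Bmp7 (-3.43 and -2.30) and Bmp10 (0.57 and 4.13) did not pass either. By percentile Bmp5 in WT was lower with serum in every culture, with 37.8 to 44.7 against 45.0 to 47.2, but the difference of -2.73 had an adjusted p of 0.0546 in limma. On the deposited log2 scale the WT difference of this dim probe set was -0.006 and the groups overlapped (4.42 to 4.91 against 4.76 to 4.86). After all 25 arrays were quantile normalized together it was -0.165. In TG the Bmp5 difference was 1.08 percentile points and the groups overlapped.

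In all, 3 of 9 ligands were higher with serum in WT, against 27.2% of probe sets, and 4 of 9 in TG, against 29.4%. Lower with serum were 0 of 9 ligands in both, against 27.7% and 30.0%. Groups did not overlap for 3 of 9 ligands in WT (35.9% of probe sets) and 2 of 9 in TG (35.2%). The shares of ligands that were higher or did not overlap were thus near those of all probe sets.

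**Figure D3:**
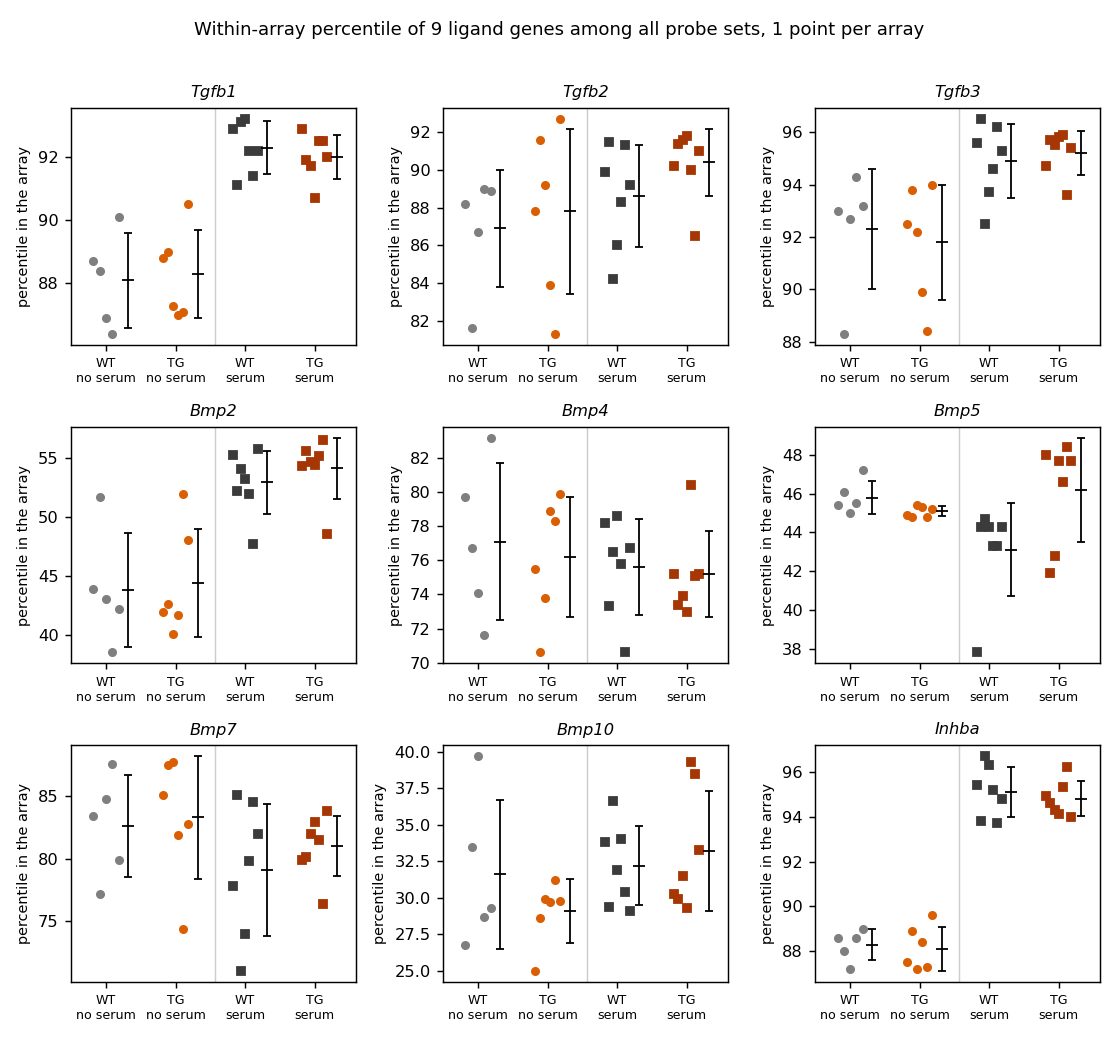
Percentile of each ligand gene among 35557 probe sets of its own array (vertical axes, 1 scale per gene), with 1 point per array in 4 groups and bars for the group mean and SD. The Inhba points with serum lie between 93.7 and 96.7, above all points without serum, while the points of Bmp4 and Bmp7 overlap.

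Around the ligands, the inhibitory SMADs were higher with serum. Smad7 had a mean percentile of 77.5 ± 1.2 (SD, n = 5) in WT cultures without serum and 89.8 ± 1.5 (SD, n = 7) with serum, with a difference of 12.28 (adjusted p = 2.63e-07 in limma). Smad6 went from 62.9 ± 1.4 to 74.5 ± 1.5 in the same groups, and both genes did the same in TG cultures. Smad1 (79.4 to 74.1 in WT) and Smad2 (88.2 to 83.3) were lower with serum in both genotypes. Among the antagonists 9 of 15 were higher and 3 lower in WT, and 9 and 4 in TG, with medians of 4.31 and 3.78 percentile points against 0.04 and 0.06 over all genes. This depended on the scale, since the median log2 difference of the antagonists as deposited was 0.15 and 0.13 against 0.23 and 0.23 over all genes, and after subtracting the array medians it was -0.10 in both genotypes, with 7 antagonists higher and 8 lower. Fst, which binds activins, went from 61.6 ± 1.2 to 72.3 ± 3.0 in WT, and Dcn, a proteoglycan that binds TGF-beta and is also a fibroblast marker, went from 93.6 ± 3.3 to 75.5 ± 5.0. Of the target genes 8 of 21 were higher and 2 lower in WT, among them Id3 (61.9 to 77.0) and Tgfbi (-7.62 points), and 8 and 3 in TG. The counts of antagonists and target genes stood beside 27.2% of all probe sets called higher and 27.7% lower in WT, and 29.4% and 30.0% in TG.

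The counts of the next lists stand beside the same shares of all probe sets (27.2% higher and 27.7% lower in WT, 29.4% and 30.0% in TG). Receptors went both ways, with 4 of 13 higher and 4 lower in WT (30.8% each, near those shares) and 4 and 6 in TG (30.8% and 46.2%). The type I receptor Bmpr1b went from 34.7 to 52.2 in WT, and the type II receptor Acvr2b went from 63.5 to 57.5. Of the 7 co-receptors 1 was higher and 3 were lower in WT and 3 and 3 in TG, with Tgfbr3 among the lower ones. Of the 15 measured genes of latency and activation 6 were higher and 3 lower in WT and 6 and 7 in TG, with Ltbp1, which tethers latent TGF-beta to the matrix, higher (78.0 to 85.4 in WT) and Mmp9 and Itgb8 lower. Of the 22 other ligands 6 were higher and 5 lower in WT and 6 and 6 in TG, near the shares of all probe sets. The largest change among them was that of Gdf6, from 65.1 to 82.5 in WT. On the log2 scale as deposited the sign was the opposite for 6 of the 23 pathway genes called lower and 3 of the 37 called higher by percentile in WT, and for 14 of 33 and 3 of 38 in TG, with Smad5, Rgmb and Twsg1 among the lower ones in both genotypes.

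Between cultures of 1 group, several ligands were high or low together. Each value was set as a deviation from its group mean, TG and WT were pooled within a serum set, and correlations over cultures were tested by permutation within groups (100000 draws, two-sided). The p-values were adjusted over 72 relations, which are all pairs of ligands in each of the 2 serum sets. With serum (14 cultures), Tgfb2 and Tgfb3 deviated together (r = 0.93, rho = 0.82, adjusted permutation p = 0.00108 and 0.0153), as did Tgfb2 and Bmp7 (r = 0.88, rho = 0.77, adjusted permutation p = 0.00264 and 0.0386). Inhba deviated the other way, with r = -0.94 against Tgfb2 and r = -0.95 against Bmp7 (rho = -0.86 and -0.92), and with Tgfb1 (r = 0.85, rho = 0.91). Without the 2 cultures farthest from the median these values of r were 0.87, 0.79, -0.88, -0.92 and 0.88. Without serum (11 cultures), Tgfb2 and Tgfb3 again deviated together (r = 0.95, rho = 0.87, adjusted permutation p = 0.00264 and 0.0153). There Tgfb2 and Inhba had r = 0.67 (adjusted permutation p = 0.15) and Bmp7 and Inhba r = 0.08, and whether these differ from the values with serum was not tested. Of the 72 relations 15 passed by Pearson's r and 9 by both measures.

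The cell markers moved with these deviations. Tgfb2 followed the mean of the 7 cardiac myocyte markers, with r = 0.97 and rho = 0.98 with serum (permutation p = 1e-05, the smallest that 100000 draws can give, adjusted p = 0.00101 over 126 relations) and r = 0.93 and rho = 0.85 without serum. Without the 2 cultures farthest from the median r was 0.96 and 0.86, and without the 3 cultures lowest in these markers it was 0.92 over 11 cultures and 0.65 over 8. Tgfb3 had r = 0.85 (rho = 0.81) with serum and 0.96 (rho = 0.79) without, and 0.56 and 0.81 without those 3 cultures. Tgfb2 also followed the list of 5 smooth muscle and pericyte markers, which includes Cnn1 and Abcc9, genes that cardiac myocytes express too (r = 0.91 with serum and 0.97 without, and 0.85 in both sets without those 3 cultures). For Tgfb3 that relation had r = 0.93 without serum (0.62 without the 3 cultures), while with serum it had r = 0.73 and rho = 0.66 (adjusted permutation p = 0.0129 and 0.0534) and r = 0.36 without the 3 cultures. For the myocyte markers Bmp7 had r = 0.81 with serum and 0.85 without (adjusted permutation p = 0.00647 and 0.00983). By rho (0.73 and 0.70) the relation did not pass (adjusted permutation p = 0.0503 and 0.0556). The values of r fell to 0.42 and 0.37 without the 3 cultures, so that this relation rested largely on the 3 cultures in each set.

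Inhba ran against the myocyte markers with serum (r = -0.92, rho = -0.85, adjusted permutation p = 0.00168 and 0.0115) and with the 8 endothelial markers (r = 0.90, rho = 0.89) and the 9 fibroblast markers (r = 0.86, rho = 0.87). Without the 3 cultures lowest in myocyte markers these values of r were -0.73, 0.74 and 0.82. Without serum the same 3 relations had r = 0.45, -0.14 and 0.17 and did not pass. Tgfb1 ran against the myocyte markers with serum (r = -0.74, rho = -0.76, adjusted permutation p = 0.0251 and 0.0308) and against the smooth muscle and pericyte markers (r = -0.78, rho = -0.69). In that set Tgfb1 ran with the endothelial markers (r = 0.72, rho = 0.76, adjusted permutation p = 0.0251 and 0.0235). Its relation to the fibroblast markers (r = 0.79, rho = 0.71) passed by r and not by rho (adjusted permutation p = 0.0151 and 0.0503). Without serum Tgfb1 had r = 0.39 with the myocyte markers and 0.64 with the smooth muscle and pericyte markers (adjusted permutation p = 0.421 and 0.132). Whether these differ from the values with serum was not tested. The closest list of Tgfb1 without serum was that of 6 macrophage markers (r = 0.89, rho = 0.77, adjusted permutation p = 0.00852 and 0.0503), and with serum that relation had r = 0.32 (adjusted permutation p = 0.484). Bmp4 followed the fibroblast markers without serum (r = 0.84, rho = 0.85). Bmp7 ran against the endothelial markers both without serum (r = -0.96, rho = -0.88) and with serum (r = -0.76, rho = -0.75). Those values of r were -0.90 and -0.44 without the 3 cultures lowest in myocyte markers. Bmp7 also followed the atrial markers without serum (r = 0.85, rho = 0.90), a list that shares Nppa with the myocyte markers. With serum that relation had r = 0.29 and did not pass (adjusted permutation p = 0.613). Against the fibroblast markers Bmp7 had r = -0.86 and rho = -0.83 with serum. Tgfb2 ran against the endothelial markers with serum (r = -0.90, rho = -0.83). Of the 126 relations 36 passed by Pearson's r and 21 by both measures. The cultures are the same in every relation, and which cells made each ligand was not tested.

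**Figure D4:**
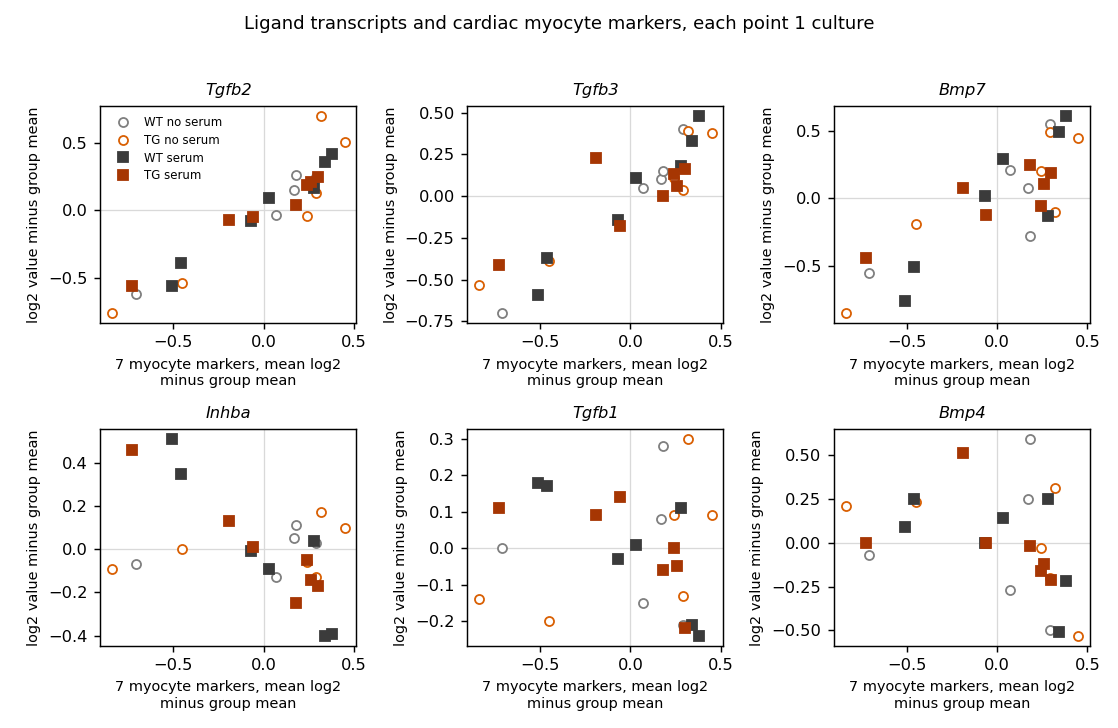
Deviation of 6 ligand genes from their group means (vertical axes, log2 scale) against the deviation of the mean of 7 cardiac myocyte markers (horizontal axes, log2 scale), with 1 point per culture, open circles for cultures without serum and filled squares for cultures with serum. Tgfb2 rises along one line in all 4 groups, while Inhba falls with serum (r = -0.92) and not without (r = 0.45).

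**Figure D5:**
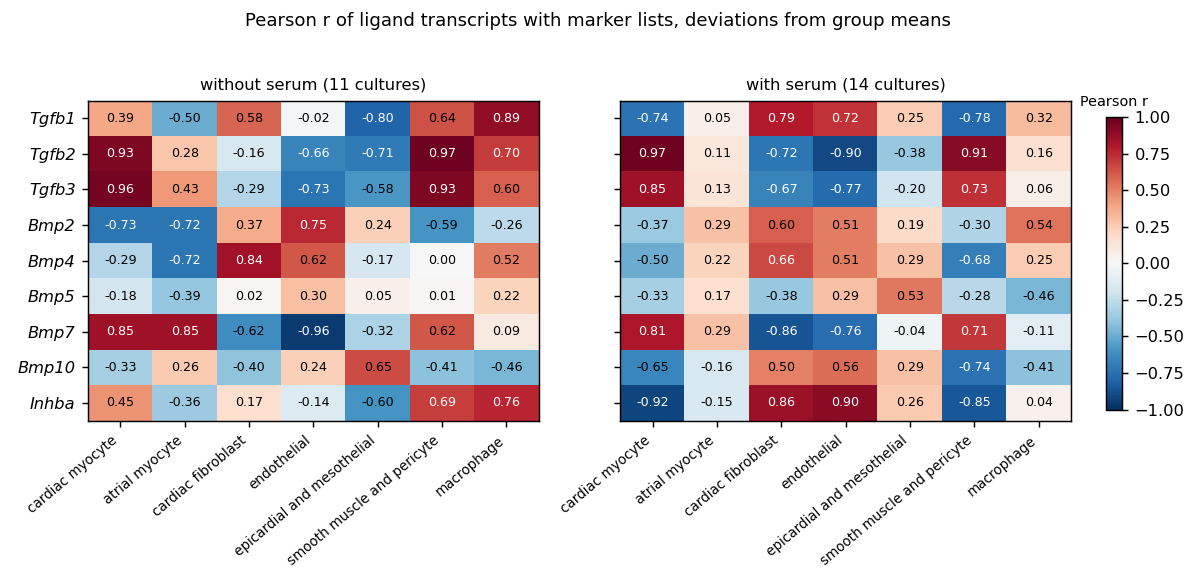
Pearson's r over cultures of each ligand gene (rows) with the mean of each of 7 marker lists (columns), both as deviations from group means, without serum (left, 11 cultures) and with serum (right, 14 cultures). The row of Inhba changes from 0.45 to -0.92 against the cardiac myocyte list, and that of Tgfb2 holds 0.93 and 0.97.

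The genes whose deviations were most like those of each ligand over the 25 arrays were taken from 12397 genes with a mean log2 value of 5 or more, as a description. For Tgfb2 they were Magi1 (r = 0.98), Myl9 (0.97) and Ryr2 (0.97), the last being the cardiac ryanodine receptor and 1 of the 7 myocyte markers. For Tgfb3 they were Myl9, Exoc4 and Usp46 (0.95 each), and for Bmp7 they were Rab11fip5, Pgam2, the muscle phosphoglycerate mutase, and Mpi (0.96 each). For Inhba they were Fgf2 (0.96), Foxc2 (0.93) and Cttnbp2nl (0.92). Inhba varied more with serum (SD 0.34 in WT and 0.24 in TG) than without (0.095 and 0.12), so these values mostly describe the cultures with serum. For Bmp4 they were Cd34 (0.88), a surface marker of endothelial and progenitor cells, and the cell cycle genes Anln and Asf1b (0.87 each). For Tgfb1 they were Tnfrsf1b (0.89), a receptor of tumor necrosis factor, and Abcc1 and Tpst2 (0.86 each), and for Bmp2 they were Zpr1 (0.87), Nifk (0.86) and Gdap2 (0.82). Bmp5 and Bmp10, the dim ones, had no gene above 0.75 and 0.73.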

How the data were processed

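Affymetrix Mouse Gene ST arrays of 25 myocyte cultures were used (5 WT and 6 TG without serum, 7 WT and 7 TG with serum). The values deposited by the authors were log2 intensities per probe set, normalized by Robust Multichip Analysis (RMA) in Expression Console 1.1, and 0 columns were left out. Whether both serum sets were normalized together is not given in the sources used here. Of 35557 probe sets, 21789 carried 1 gene symbol in the platform annotation, 1621 several and 12147 none. The members and lists were chosen with earlier results of these data known. Gdf15 and a few other listed genes were not analysed here. The genes named were all ligands, up to 4 genes of a pathway list past the test or otherwise those with the smallest p, and the 3 genes most like each ligand. Where a list had more genes with an unadjusted p under 0.05, only their number is given.

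All probe sets were fitted with limma 3.58.1 in R 4.3.3 (lmFit with 1 mean per group, eBayes), TG against WT within each serum set on log2 values, serum against no serum within each genotype on within-array percentiles, and the difference of TG effects over all 25 arrays. Calls were made at a Benjamini-Hochberg adjusted p under 0.05 over all probe sets. The fits were tested on simulated data. Alternatives were quantile normalization again, centring, array weights, a variance trend, filters on dim or unnamed probe sets, means over a gene's probe sets, 1 fit over all arrays, other scales for serum, a replicate block and leaving out each array. Leaving out the 6 arrays low in myocyte markers, and the correlations without 3 of them, were chosen after seeing the data. Promoter windows came from RefSeq (GRCm38.p6). Arrays have no read depth, and precision rests on the number of arrays.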

Additional observations from a re-analysis of the deposited data

Results flagged for a closer look

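Of 36 groups of values tested for a single far culture (9 ligands in 4 groups), 5 were flagged, and chance flags about 1 in 20 groups. In Tgfb2 the lowest TG culture with serum (replicate 6, log2 value 8.76) stood apart from the other 6, and this culture was also low in myocyte markers. In Bmp2 the highest WT culture without serum (replicate 2, 5.19), also low in myocyte markers, and the lowest TG culture with serum (replicate 7, 5.22) stood apart. In Bmp4 the highest TG culture with serum (replicate 5) had 8.09. In the dim Bmp5 probe set the lowest WT culture with serum (replicate 1) had 4.42.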

How the results depend on the processing

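The count of ligands called between TG and WT was 0 without serum, 0 with serum and 0 for the difference of TG effects under every alternative run. The count of ligands past the serum test in either direction was 3 in WT, all higher with serum, against 5 on the deposited log2 scale, 5 with percentiles averaged over probe sets of 1 gene (Tgfb3 as higher and Bmp5 as lower), and 3 to 5 when 1 array was left out (5 without WT serum replicate 3, where Tgfb3 passed as higher and Bmp5 as lower, while Tgfb3 also passed as higher without WT no serum replicate 4 and Bmp5 as lower without WT serum replicate 1). In TG it was 4, all higher, against 7 on the deposited log2 scale and 4 to 5 when 1 array was left out (Bmp7 passed as lower without TG no serum replicate 5, and Bmp10 as higher without TG serum replicate 2 or 4). With the replicate number as a block the 5 counts were 0, 0, 3, 5 and 0, the fifth ligand in TG being Bmp10 (4.10, adjusted p = 0.0463). Same-number cultures did not deviate together (r from -0.45 to 0.15 between TG and WT without serum, from -0.36 to 0.06 with serum, and from -0.24 to 0.19 across serum). A figure legend of the paper skips some numbers among the cultures without serum, whereas the sample titles skip none. The same number may therefore not mark matching cultures, and these values cannot decide whether cultures were paired. Without the 6 arrays low in myocyte markers the counts were 0, 0, 4, 5 and 0, with Tgfb3 (2.33, adjusted p = 0.00841) past the test in WT and Bmp7 (-4.08, adjusted p = 0.0123) in TG. For Bmp4 and Bmp7 in both genotypes, and for Bmp10 in WT, the direction of the serum difference depended on the scale. The differences that changed sign are listed here, and the cause was not tested. Between TG and WT without serum they were Bmp2 with quantile normalization again (0.025), with centring (0.023) and without the 6 arrays (0.037), Inhba with quantile normalization (-0.017) and the block (-0.024), and Tgfb1 with the block (-0.011). With serum they were Tgfb1 and Bmp4 with centring (0.009 and 0.024) and without the 6 arrays (0.012 and 0.044), Bmp10 with array weights (-0.027), and Tgfb3 and Bmp7 without the 6 arrays (-0.045 and -0.001). For serum against none on the deposited log2 scale they were Bmp4 (0.28), Bmp7 (0.096) and Bmp10 (-0.118) in WT and Bmp4 (0.335) and Bmp7 (0.179) in TG, and Bmp4 in TG had 0.254 by percentile without the 6 arrays. Leaving out 1 array gave ranges across 0 without serum for Tgfb1 (-0.011 to 0.119), Tgfb3 (-0.237 to 0.043), Bmp2 (-0.091 to 0.108), Bmp4 (-0.204 to 0.068), Bmp7 (-0.041 to 0.267) and Inhba (-0.024 to 0.037). With serum the same held for Tgfb3 (-0.019 to 0.158), Bmp4 (-0.111 to 0.017) and Bmp10 (-0.042 to 0.065), and for WT percentiles of Bmp4 (-2.77 to 0.136) and Bmp10 (-0.631 to 2.59).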
